A study of Mus musculus with 10 samples.

Results

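The level of 10 genes that mark macrophages of the mouse heart was followed in heart RNA: Csf1r, Cd163, Mrc1, Lyve1, Timd4, Adgre1, F13a1, Folr2, Cd68 and Cd14. They were listed by name for what they are known to mark, with earlier results of these data known but with no measured value in the rule, and all 10 were found among the 54532 genes of the deposited table. The table holds 10 hearts of Rit1 M90I/+ mice, which model Noonan syndrome, a developmental disorder of the RAS pathway in which the heart muscle can thicken. The MEK inhibitor trametinib was given to 5 of the mice, called MEKi, daily at 1 mg/kg, beginning at an age of 4 weeks and lasting 20 weeks. The other 5 received the vehicle control (trametinib itself was dissolved in carboxymethylcellulose with Tween) and are called vehicle, and every heart of both groups carried the Rit1 M90I/+ genotype, so no wild-type level is given here. The mutant allele was switched on by a cytomegalovirus-Cre deleter, so it is carried in the macrophages as well as in the heart muscle. Poly(A) RNA was sequenced, and 13647167 to 18474002 fragments per heart were recovered from the FPKM values, with a median of 14591135 in vehicle and 16256252 in MEKi hearts.

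Heart macrophages belong to several lineages. Resident cells settle the heart before birth, renew themselves there and carry LYVE1, TIMD4 and FOLR2 on their surface, whereas others arrive from the blood as monocytes. The survival of both depends on CSF1R, a receptor tyrosine kinase that signals through the RAS and ERK pathway that MEK belongs to. The question was whether the level of these genes differed between hearts of mice that received the MEK inhibitor and hearts of mice that received its carrier.

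None of the 10 genes passed the test. With limma, which fits all 12602 genes whose mean reached 0.5 FPKM and adjusts over all of them (Benjamini-Hochberg), the smallest adjusted p among the 10 was 0.554, for Cd163. All 10 reached that mean, so none was left out. The number past the adjusted threshold of 0.05 was 0 of 10, where the share over all genes tested was 0.0794%. That share is 10 of 12602 genes, and 0 passed when X, Y and mitochondrial genes were left out. Unadjusted p was under 0.05 for 2 of 10, Cd163 and Csf1r, against 7.62% of all genes. That count was 5 without vehicle heart 1, 3 without vehicle heart 3 or 4, and 1 without vehicle heart 5 or without MEKi heart 1, 4 or 5. It was 0 without the 2 hearts with high haemoglobin transcripts (vehicle 4 and 5) and 0 without the 3 with high atrial transcripts (vehicle 4 and 5 and MEKi 2). Over all 12602 genes, the same count was 960 with every heart, and 1240, 1259, 944 and 869 without vehicle heart 1, 3, 4 or 5. Leaving out MEKi heart 1, 4 or 5 gave 878, 815 and 856. It was 918 without the haemoglobin-rich hearts and 816 without the atrial-rich hearts. In none of the 10 were the 5 MEKi hearts all below or all above the 5 vehicle hearts, and 1.64% of all genes were separated in that way. A log2 fold change below 0 (MEKi minus vehicle) was found for 8 of 10, against 47.9% of all genes, and the median over the 10 was −0.29 against 0.01 over all genes. The 95% intervals of all 10 lay between −0.87 and 0.89 on the log2 scale, so changes of 1 log2 unit or more lay outside every interval. FPKM is the number of fragments scaled to the length of the gene and the size of the library, and log2 values are of FPKM + 0.1. RNA of mixed heart tissue cannot tell apart fewer macrophages and less RNA per macrophage. The sample titles say only heart, with no chamber named. In the 3 hearts with high atrial transcripts, 4 atrial markers summed to 2135 (vehicle 4), 802.1 (vehicle 5) and 1074 FPKM (MEKi 2). The other hearts had 125.4 to 455.7 FPKM. The part of atrial tissue in the macrophage values was not tested. Transcripts of the sex chromosomes divided the hearts exactly as the treatment did (Xist from 5.16 to 6.85 FPKM in MEKi hearts and no higher than 0.0066 FPKM with vehicle, Ddx3y from 10.3 to 12.2 FPKM in vehicle hearts and at 0 in MEKi hearts), so treatment and sex cannot be told apart in any comparison here. The study used littermates of both sexes, and its labels do not give the sex of a heart.

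**Figure D1:**
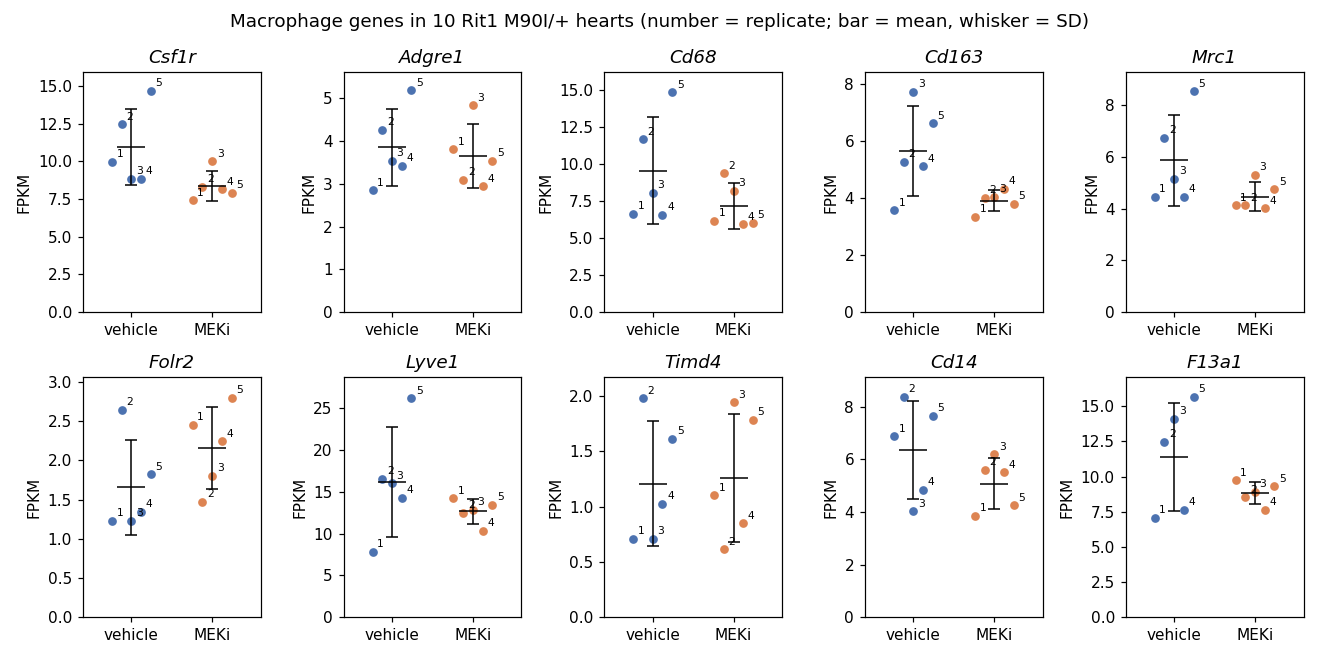
FPKM (vertical axis, from 0) of each of the 10 macrophage genes in the 5 vehicle and 5 MEKi hearts; each point is a heart labelled with its replicate number, the bar is the mean and the whisker the SD. Vehicle hearts 5 and 2 stand at the top of most panels, and the 2 groups overlap in every panel.

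Stretches upstream of the transcription start of 4 of the genes are shown. The start regions of macrophage genes are known to be bound by PU.1, the ETS factor that sets up the macrophage lineage. In all, 6 of the 10 genes matched the RefSeq promoter table (GRCm38.p6), with 8 start sites. The letters searched, on both strands, were GGAAGT (a PU.1 core), GGAAGTGAA (that core continued into a half-site of interferon regulatory factors, and so always also a GGAAGT) and TGAGTCA (bound by AP-1, the FOS and JUN dimer that acts after ERK). They were chosen after the sequences had been seen. The 4 stretches shown are from the starts outside the annotated genes that held these letters, in Cd68 only TGAGTCA. The start of Cd163, not shown, held none. Capitals mark these letters, each sequence reads 5′ to 3′ on the strand of its gene, and all 4 lie outside the annotated genes.
Folr2, chr7:101857221-101857371, minus strand: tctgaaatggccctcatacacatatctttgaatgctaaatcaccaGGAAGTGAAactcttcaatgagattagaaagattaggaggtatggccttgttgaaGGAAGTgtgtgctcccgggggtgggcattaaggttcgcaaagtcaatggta
Timd4, chr11:46810682-46810780, plus strand: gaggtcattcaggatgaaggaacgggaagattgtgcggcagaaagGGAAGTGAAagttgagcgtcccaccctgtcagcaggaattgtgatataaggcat
Mrc1, chr2:14229164-14229253, plus strand: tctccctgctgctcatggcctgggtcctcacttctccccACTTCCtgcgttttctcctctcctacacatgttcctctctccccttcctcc
Cd68, chr11:69666171-69666364, minus strand: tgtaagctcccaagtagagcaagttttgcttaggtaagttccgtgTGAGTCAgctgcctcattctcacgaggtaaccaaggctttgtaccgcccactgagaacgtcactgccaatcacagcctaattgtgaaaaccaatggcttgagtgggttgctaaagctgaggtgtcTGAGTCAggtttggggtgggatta

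GGAAGT was found at 4 of the 8 start sites, and in 19.7% of the 32851 promoters of the table. The 4 were the starts of Folr2, Timd4 and Mrc1 shown above and a start within F13a1, whereas the F13a1 start at the edge of the gene held none. In Mrc1 it is on the opposite strand, so it is printed as ACTTCC. The longer GGAAGTGAA began 136 bases before the start of Folr2 and 72 bases before that of Timd4, and 0.493% of all promoters held it. TGAGTCA began 149 and 24 bases before the start of Cd68, and a second, internal start of Folr2 held it on the opposite strand 74 bases upstream, against 4.46% of all promoters. The letters were chosen after these sequences had been seen, so the shares of all promoters cannot test whether these genes hold them more often. These are matches of letters only, and no binding was measured in these hearts.

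Per length of gene, Lyve1 had the highest level of the 10 and Timd4 the lowest. In order of the mean over the 10 hearts, the levels were 14.4 FPKM for Lyve1, 10.1 for F13a1, 9.67 for Csf1r, 8.34 for Cd68, 5.72 for Cd14, 5.17 for Mrc1, 4.78 for Cd163, 3.75 for Adgre1, 1.91 for Folr2 and 1.23 for Timd4. Lyve1 was above F13a1 in 10 of 10 hearts. Adgre1 was above Folr2 in 10 of 10, and these were the only neighbours in that order whose ranges did not overlap. F13a1 was above Csf1r in only 6 of 10 hearts and Cd14 above Mrc1 in only 6 of 10, so these neighbours cannot be ordered. Counting error differed along that order too, since single hearts gave from 22 fragments (Timd4) to 1537 fragments (F13a1).

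Csf1r (ENSMUSG00000024621) encodes the receptor for CSF1 and IL-34, the growth factors on which macrophages depend. Its level was 9.98, 12.5, 8.85, 8.87 and 14.7 FPKM in vehicle hearts 1 to 5, and 7.43, 8.31, 10.02, 8.15 and 7.93 FPKM in MEKi hearts 1 to 5. MEKi hearts 1, 2, 4 and 5 lay below the lowest vehicle heart, MEKi heart 3 did not, and vehicle hearts 2 and 5 stood above the other 8. The mean was 11.0 ± 2.55 FPKM in vehicle and 8.37 ± 0.982 FPKM in MEKi hearts (SD, n = 5 each). The log2 fold change was −0.36 ± 0.15 (SE), with limma unadjusted p = 0.0306 and adjusted p = 0.596. Hmgxb3 overlaps Csf1r on the other strand, and the strand used in counting is not given in the sources used here. At most 210 fragments were counted to Hmgxb3 in any heart, where Csf1r had 603 to 1044.

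Its ligands and the transcription factors of the lineage were taken as a list of 16 genes, of which 13 were tested. None of the 13 passed the adjusted threshold and none had an unadjusted p under 0.05, with 11 of 13 log2 fold changes below 0 (47.9% of all genes) and a median of −0.25. The median was −0.16 without vehicle heart 5 and −0.03, with 8 of 13 below 0, without the haemoglobin-rich vehicle hearts 4 and 5. Without vehicle heart 1, 3 of the 13 had an unadjusted p under 0.05, beside 1240 of all 12602 genes. Csf1, the main ligand, was at 8.82 ± 1.53 FPKM in vehicle and 7.38 ± 1.504 FPKM in MEKi hearts (log2 fold change −0.27, limma adjusted p = 0.750). Il34, the second ligand, was at 1.48 ± 0.312 and 1.17 ± 0.431 FPKM. Spi1, which encodes PU.1, was at 4.48 ± 0.900 and 4.39 ± 0.716 FPKM, means that differ by less than either SD. The other members with the highest levels were Id3 (log2 fold change −0.15), Cebpb (−0.25) and Klf4 (−0.27), all transcription factors that many cell types share.

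Cd163, Mrc1, Lyve1, Folr2 and Timd4 encode surface receptors of resident macrophages. CD163 (ENSMUSG00000008845, chr6:124304656-124330527) takes up complexes of haemoglobin and haptoglobin. Cd163 was at 3.57, 5.27, 7.71, 5.10 and 6.61 FPKM in vehicle hearts 1 to 5, and at 3.34, 4.01, 4.04, 4.31 and 3.79 FPKM in MEKi hearts 1 to 5. Vehicle hearts 2 to 5 lay above the highest MEKi heart, and vehicle heart 1 lay within the MEKi range. Its log2 fold change of −0.48 ± 0.18 (SE; 95% interval, −0.87 to −0.10) was the furthest from 0 of the 10, with limma unadjusted p = 0.0182 and adjusted p = 0.554. Without vehicle heart 1 it was −0.63 and without vehicle heart 3 it was −0.36, and neither passed.

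MRC1 (ENSMUSG00000026712, chr2:14229392-14332057), the mannose receptor CD206, clears glycoproteins and collagen fragments. Its gene was at 4.47, 6.73, 5.14, 4.45 and 8.53 FPKM in vehicle hearts 1 to 5, and at 4.13, 4.13, 5.30, 4.02 and 4.74 FPKM in MEKi hearts 1 to 5. Vehicle hearts 2 and 5 stood above every MEKi heart, and the other 3 lay among them. The log2 fold change was −0.35 (95% interval, −0.73 to 0.04; limma adjusted p = 0.673), and −0.20 without vehicle heart 5.

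LYVE1 (ENSMUSG00000030787, chr7:110850607-110863239) is a hyaluronan receptor made by resident macrophages and by lymphatic endothelium. Lyve1 was at 7.84, 16.6, 16.0, 14.3 and 26.1 FPKM in vehicle hearts 1 to 5, and at 14.2, 12.5, 12.8, 10.3 and 13.5 FPKM in MEKi hearts 1 to 5. The vehicle group held both its lowest and its highest value, 3.33-fold apart, and the MEKi hearts lay between them. The log2 fold change of −0.26 (95% interval, −0.80 to 0.28; limma adjusted p = 0.833) was −0.49 without vehicle heart 1, −0.06 without vehicle heart 5, and −0.02 without the 3 hearts with high atrial transcripts. The summed level of 5 lymphatic markers (Prox1, Pdpn, Flt4, Mmrn1 and Reln) was 9.72 to 15.2 FPKM in vehicle and 11.8 to 16.3 FPKM in MEKi hearts. The lowest sum was in vehicle heart 1, where Lyve1 was lowest. In vehicle heart 5, where Lyve1 was highest, the sum of 15.2 FPKM lay below MEKi hearts 1, 2 and 3 (15.65, 15.7 and 16.3 FPKM). Of the 4 lymphatic markers tested, Prox1 (0.48) and Mmrn1 (0.61) had a log2 fold change above 0 with an unadjusted p under 0.05. That p was reached by 7.62% of all genes, and none of the 4 passed after adjustment. The part of lymphatic vessels in Lyve1 was not tested.

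FOLR2 (ENSMUSG00000032725, chr7:101839988-101857194), a folate receptor, and TIMD4 (ENSMUSG00000055546, chr11:46810800-46844332), which binds phosphatidylserine on dying cells, were the 2 genes with a log2 fold change above 0. Folr2 was at 1.23, 2.65, 1.23, 1.35 and 1.82 FPKM in vehicle hearts 1 to 5, and at 2.45, 1.47, 1.81, 2.24 and 2.80 FPKM in MEKi hearts 1 to 5. Vehicle hearts 1, 3 and 4 lay below every MEKi heart, whereas vehicle heart 2 was second only to MEKi heart 5. The log2 fold change was 0.39 (95% interval, −0.11 to 0.89; limma adjusted p = 0.733), and 0.57 without vehicle heart 2. An antisense gene, Gm10602, overlaps Folr2 and had at most 54 fragments in a heart, where Folr2 had 27 to 68, and the part of strand assignment in the Folr2 value was not tested. Timd4 was at 0.711, 1.98, 0.712, 1.02 and 1.61 FPKM in vehicle and 1.10, 0.617, 1.94, 0.849 and 1.79 FPKM in MEKi hearts 1 to 5. Both groups spanned almost the same range, and the log2 fold change of 0.05 (95% interval, −0.71 to 0.81; limma adjusted p = 0.980) took either sign when single hearts were left out. At 22 to 62 fragments per heart, Timd4 had the widest interval of the 10.

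Adgre1, Cd68 and Cd14 mark macrophages of any origin. ADGRE1 (ENSMUSG00000004730, chr17:57358691-57483527) is F4/80, the antigen by which mouse macrophages are usually sorted. Adgre1 was at 2.84, 4.26, 3.54, 3.42 and 5.18 FPKM in vehicle and 3.80, 3.10, 4.84, 2.94 and 3.54 FPKM in MEKi hearts 1 to 5. The groups overlapped almost wholly, with means of 3.85 ± 0.898 and 3.64 ± 0.752 FPKM, a log2 fold change of −0.07 (95% interval, −0.45 to 0.31) and a limma adjusted p of 0.951. The sign turned in some alternatives, for example to 0.0058 on a TPM scale.

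CD68 (ENSMUSG00000018774, chr11:69664213-69666153) is a glycoprotein of the lysosome. Cd68 was at 6.62, 11.6, 8.06, 6.57 and 14.8 FPKM in vehicle and 6.17, 9.36, 8.18, 5.92 and 6.03 FPKM in MEKi hearts 1 to 5. Vehicle hearts 5 and 2 again stood above the rest, and 3 MEKi hearts lay below the lowest vehicle heart. The log2 fold change was −0.36 (95% interval, −0.87 to 0.14; limma adjusted p = 0.754), and −0.19 without vehicle heart 5. Cd14 (ENSMUSG00000051439), the co-receptor that hands lipopolysaccharide to TLR4, was at 6.88, 8.38, 4.03, 4.84 and 7.65 FPKM in vehicle and 3.86, 5.60, 6.19, 5.51 and 4.25 FPKM in MEKi hearts 1 to 5. Vehicle hearts 1, 2 and 5 were above every MEKi heart, while vehicle hearts 3 and 4 were among the 4 lowest of all 10. Its log2 fold change was −0.29 (95% interval, −0.74 to 0.17; limma adjusted p = 0.779), and it was −0.18 without vehicle heart 2 and −0.43 without vehicle heart 3.

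F13a1 (ENSMUSG00000039109, chr13:36867178-37050244) encodes the A subunit of coagulation factor XIII, which crosslinks fibrin and is made by resident macrophages and by platelets. It was at 7.09, 12.5, 14.1, 7.66 and 15.7 FPKM in vehicle and 9.73, 8.54, 8.93, 7.66 and 9.31 FPKM in MEKi hearts 1 to 5. The vehicle hearts were widely spread, with 3 above every MEKi heart and vehicle heart 1 below every one. The log2 fold change was −0.30 (95% interval, −0.75 to 0.16; limma adjusted p = 0.774), and it was −0.17 without vehicle heart 5 and −0.45 without vehicle heart 1. F13b and the fibrinogen genes Fga, Fgb and Fgg, whose products circulate with or are crosslinked by factor XIII, were at 0 in all 10 hearts. The summed level of 4 platelet markers was 36.1 to 148.3 FPKM in vehicle and 25.3 to 41.6 FPKM in MEKi hearts. The top sum was in vehicle heart 5, where F13a1 was highest as well. The next, 45.5 FPKM, was in vehicle heart 1, where F13a1 was lowest. Vehicle heart 3, second for F13a1, had a platelet sum of only 36.1 FPKM. Most of the platelet sum was Pf4 (91.4 of 148.3 FPKM in vehicle heart 5), which is also in the list of resident macrophage genes below. The part of platelets in F13a1 was not tested.

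**Figure D2:**
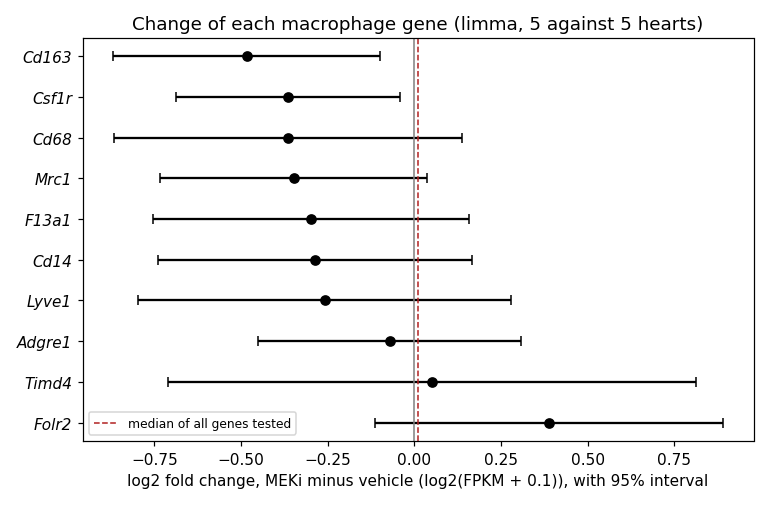
Log2 fold change (horizontal axis, MEKi minus vehicle, on log2(FPKM + 0.1)) of each macrophage gene with its 95% interval from limma, 5 against 5 hearts; the dashed line is the median of all genes tested. Cd163 at the top and Csf1r below it are the 2 whose intervals lie below 0, and neither passed after adjustment over 12602 genes.

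The vehicle hearts varied more than the MEKi hearts. The SD of FPKM was larger among vehicle hearts for 9 of the 10 genes, Timd4 being the exception, and for 67.5% of all genes tested. The highest of the 10 values was in vehicle heart 5 for 6 genes (Csf1r, Adgre1, Cd68, Mrc1, Lyve1 and F13a1), in vehicle heart 2 for 2 (Cd14 and Timd4), in vehicle heart 3 for Cd163 and in MEKi heart 5 for Folr2. Over all genes tested, vehicle heart 5 was highest in 16.0%. Summed over the 10 genes, the level was 51.2, 82.4, 69.4, 57.6 and 102.7 FPKM in vehicle hearts 1 to 5 (72.7 ± 20.6), and 56.2, 57.6, 64.1, 51.9 and 57.6 FPKM in MEKi hearts 1 to 5 (57.5 ± 4.36). Vehicle heart 1 had the lowest sum of all and vehicle heart 5 the highest, so the vehicle group spanned the whole MEKi range. Without vehicle heart 5 the median log2 fold change of the 10 genes was −0.18, and without vehicle heart 1 it was −0.41.

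Many pairs of the 10 genes, but not all, moved together from heart to heart. Pearson's r over the 10 hearts was above 0.5 for 26 of the 45 pairs, and Spearman's rank correlation for 23. The median Pearson's r was 0.59, with a range of −0.32 to 0.93. Csf1r and Mrc1 were the closest pair (0.93), and Csf1r with Cd68 (0.87), Mrc1 with Cd68 (0.87), Lyve1 with F13a1 (0.87) and Csf1r with Cd14 (0.84) followed. Within the groups, with each group's mean taken off, the median r was 0.52. It was 0.23 without vehicle hearts 5 and 2. Those 2 were picked because their mean z-score over these same 10 genes lay furthest from the median of the hearts. A fall in r was thus built into the choice, and the value cannot show how far the likeness rests on them. The points share the scaling of each library, and these values are a description of 10 hearts.

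Folr2 stood apart from that pattern over all 10 hearts, and less so within the groups. Its median r with the other 9 genes was 0.13, with values from −0.32 (Cd163) to 0.67 (Timd4). With each group's mean taken off, its median r was 0.40, nearer to the 0.52 of all pairs. Folr2 and Timd4 were the 2 genes with the lowest levels and counts. Cd14 was close to Csf1r (0.84), Cd68 (0.68) and Mrc1 (0.62), but not to Lyve1 (0.13), F13a1 (0.16) or Cd163 (0.14). In vehicle heart 3, Cd163 and F13a1 were high while Cd14 was the second lowest of all 10 hearts.

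**Figure D3:**
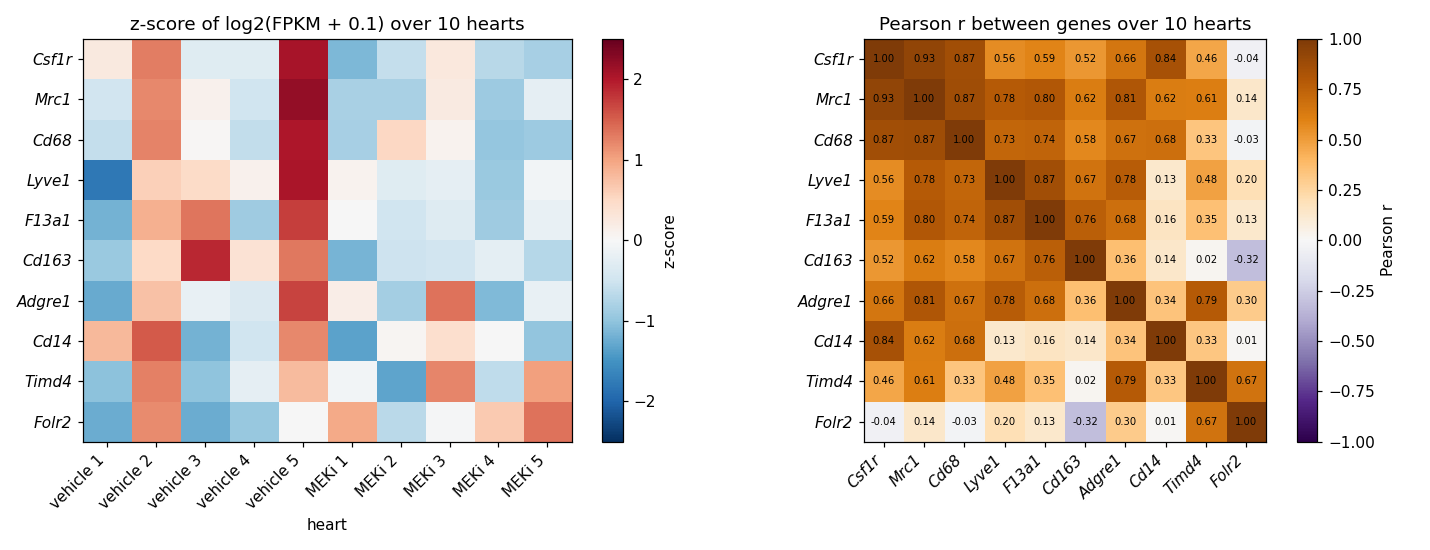
Left, z-score of log2(FPKM + 0.1) of each macrophage gene (rows) in each heart (columns), red above and blue below the mean over 10 hearts; right, Pearson's r of each pair over the same hearts. Vehicle hearts 5 and 2 are red in most rows, Csf1r and Mrc1 have the highest r (0.93), and the Folr2 row is pale except against Timd4 (0.67).

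Likeness was ranked over 10695 other genes whose mean reached 1 FPKM. Those most like the mean z-score of the 10 were Gm6548 (Pearson's r 0.95), Arhgap17 (0.93), Cap1 (0.92), Tmem106a (0.91), Cd300ld (0.91), Pld4 (0.90), Gm7099 (0.90) and Lcp1 (0.90), over 10 hearts. Gm6548 and Gm7099 are processed pseudogenes, whose reads may belong to their parent genes. LCP1 is the actin-bundling L-plastin of white blood cells and CD300LD a receptor of myeloid cells. Most like Csf1r were S100a9 (0.95), a calcium-binding protein that neutrophils make in bulk, Laptm5 (0.94), a lysosomal protein of blood cells, and Twf1 (0.94), an actin-binding protein. Lyve1 was most like Gm7099 (0.95), Eps8 (0.94) and Ssh1 (0.92), and Cd14 most like Ctdspl (0.95), Colgalt2 (0.92) and Pcnx3 (0.92).

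Other genes of macrophages were read as lists. Of 32 pan-macrophage and myeloid genes, all of them tested, none passed after adjustment, 10 had an unadjusted p under 0.05 (7.62% of all genes), and 27 had a log2 fold change below 0 (47.9% of all genes), with a median of −0.32. Without vehicle heart 5, the unadjusted count was 6 of 32 (869 of all 12602 genes) and the median −0.20. Lyz2, the lysozyme of macrophages and neutrophils, was at 281.2 ± 67.0 FPKM in vehicle and 198.8 ± 21.98 FPKM in MEKi hearts, and its groups did not overlap (233.3 at the lowest in vehicle, 226.3 at the highest in MEKi; log2 fold change −0.48, limma adjusted p = 0.456). Ncf1, a subunit of the phagocyte NADPH oxidase, did not overlap either, with means of 2.75 ± 0.813 and 1.75 ± 0.309 FPKM (log2 fold change −0.60, limma adjusted p = 0.461). No overlap was thus found for 2 of 32, against 1.64% of all genes. Cyba, Lgmn and Grn, the next in level after Lyz2, had log2 fold changes of −0.0026, 0.07 and 0.05.

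Of 27 other resident macrophage genes tested, 18 were below 0 (47.9% of all genes) and 9 above, with a median of −0.12. An unadjusted p under 0.05 was found for 5 (7.62% of all genes) and no overlap for 2 (1.64%). None passed after adjustment. Stab1, a scavenger receptor that also takes part in the clearance of dying cells, was at 9.34 ± 2.43 FPKM in vehicle and 6.46 ± 0.446 FPKM in MEKi hearts without overlap (log2 fold change −0.50, limma adjusted p = 0.455). Siglec1, the sialic acid receptor CD169, was at 0.670 ± 0.109 and 0.405 ± 0.141 FPKM, also without overlap (−0.65, limma adjusted p = 0.572). Selenop, Gas6, Fcgrt and Ninj1, the most abundant, had log2 fold changes from −0.13 to 0.06. The median of this list had no steady sign, since it was 0.02, with 13 of 27 below 0, without vehicle heart 5.

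Of 23 monocyte-derived and inflammatory genes tested, 18 were below 0 (47.9% of all genes), with a median of −0.22. An unadjusted p under 0.05 was found for 5 (7.62% of all genes) and no overlap for 1 (1.64%). None passed after adjustment. Without vehicle heart 5, 14 of 23 lay below 0 with a median of −0.11, and without vehicle hearts 4 and 5 it was 13 of 23 with a median of −0.07. The most abundant were the antigen-presentation genes Cd74, H2-Eb1, H2-Ab1 and H2-Aa, with log2 fold changes of −0.16, −0.01, 0.02 and −0.01. Ace, the angiotensin-converting enzyme, which patrolling monocytes share with endothelium, did not overlap, with means of 13.8 ± 2.25 and 8.69 ± 1.85 FPKM (−0.67, limma adjusted p = 0.314). Of the partners and paralogues of the 10 genes, 18 were tested and 15 were below 0 (47.9% of all genes), with a median of −0.22. Of these 18, 1 had an unadjusted p under 0.05 (7.62% of all genes) and none passed. Cd36, Lamp1, Lamp2 and Adgre5, the most abundant of them, had log2 fold changes of −0.10, 0.08, 0.11 and −0.22. Of 14 genes of apoptotic cell clearance, 10 were below 0 (47.9% of all genes), with a median of −0.13. Only Stab1 had an unadjusted p under 0.05 (7.62% of all genes). That list had no steady direction, since its median was −0.04 without vehicle heart 5 and 0.0060, with 7 of 14 below 0, without vehicle hearts 4 and 5. Gas6, Mfge8, Itgb5 and Axl, the highest of that list, had log2 fold changes of −0.06, −0.19, 0.06 and −0.08.

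Over the ligand and factor, pan-macrophage, resident and monocyte lists together, 95 genes were tested, 74 lay below 0 and none passed after adjustment. An unadjusted p under 0.05 was found for 20 of 95 and no overlap for 5 of 95, all 5 lower in MEKi hearts, against 7.62% and 1.64% of all genes. The lists were chosen with earlier results of these data known, so these counts cannot test them. Ace, among the 5, had been reported by the paper as lower with the inhibitor in these hearts. The unadjusted count was 16 without vehicle heart 5 and 14 on a TPM scale (869 and 1009 of all 12602 genes). Vehicle heart 5 held the highest value for 54 of the 95. Without vehicle heart 5, 63 of 95 lay below 0 with a median of −0.13 in place of −0.25, and 57 lay below 0 with a median of −0.10 without vehicle hearts 4 and 5, the 2 with high haemoglobin transcripts.

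**Figure D4:**
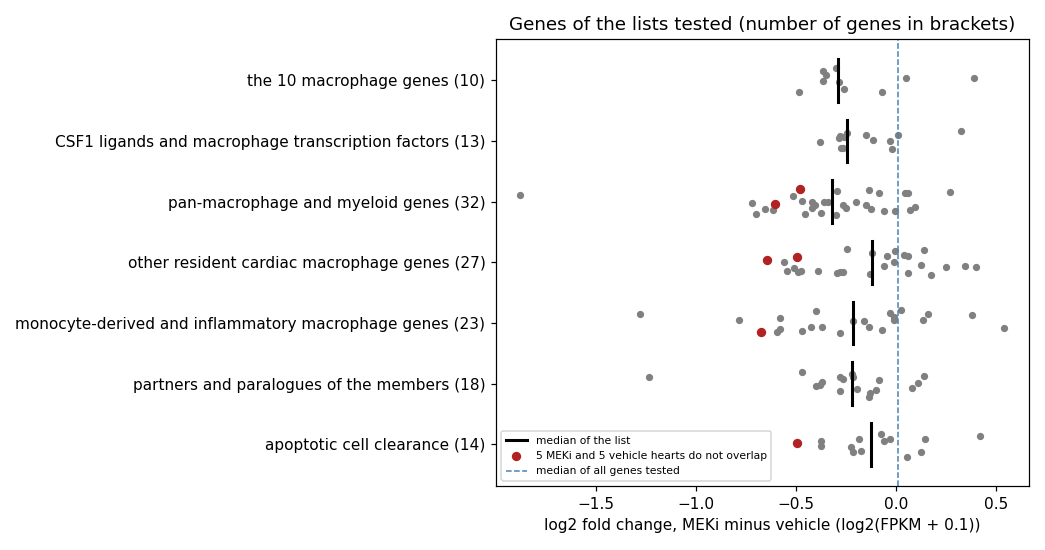
Log2 fold change (horizontal axis, MEKi minus vehicle, on log2(FPKM + 0.1)) of each tested gene of the macrophage lists, with the number tested in brackets; black bars are list medians, red points are genes whose groups do not overlap, and the dashed line is the median of all genes. The list medians lie between −0.32 and −0.12, left of the median of all genes at 0.01.

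Transcripts of other cells differed in which hearts they were high in. The summed level of 6 neutrophil markers was 20.1, 32.0, 11.3, 11.4 and 92.2 FPKM in vehicle hearts 1 to 5, and 3.12, 11.0, 18.02, 10.8 and 5.19 FPKM in MEKi hearts 1 to 5. Vehicle hearts 5 and 2, the highest for the macrophage genes, were the highest for neutrophil markers too, although Ly6g, their defining surface antigen, was at 0 in all 10. Of the 6, 4 were tested, and all 4 had a log2 fold change below 0 (47.9% of all genes). An unadjusted p under 0.05 was found for 2 (7.62% of all genes), S100a8 (−2.09, limma adjusted p = 0.425) and Csf3r (−1.88, limma adjusted p = 0.231). Csf3r is also in the pan-macrophage and myeloid list. The platelet sum was 148.3 FPKM in vehicle heart 5 and at most 45.5 in the other 9, with vehicle heart 2 at 41.5. Red cell transcripts summed to 21070 FPKM in vehicle heart 4 and 23820 in vehicle heart 5, and to 2691 to 6909 FPKM in the other 8 hearts. For the 10 macrophage genes, vehicle heart 4 had a sum of 57.6 FPKM, within the MEKi range, and vehicle heart 5 had the highest sum (102.7 FPKM). Fibroblast markers summed to 140.8 to 223.2 FPKM in vehicle and 152.1 to 201.5 FPKM in MEKi hearts, and those of endothelium to 105.5 to 171.5 and 106.2 to 134.9 FPKM, both highest in vehicle heart 5. T cell markers summed to at most 1.93 FPKM in any heart. Cardiomyocyte markers summed to 9834 to 12300 FPKM in vehicle and 9224 to 12930 FPKM in MEKi hearts. Among vehicle hearts their sum was lowest in vehicle heart 5, and MEKi heart 5 was lower still. The part of these cells in the macrophage values was not tested.

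**Figure D5:**
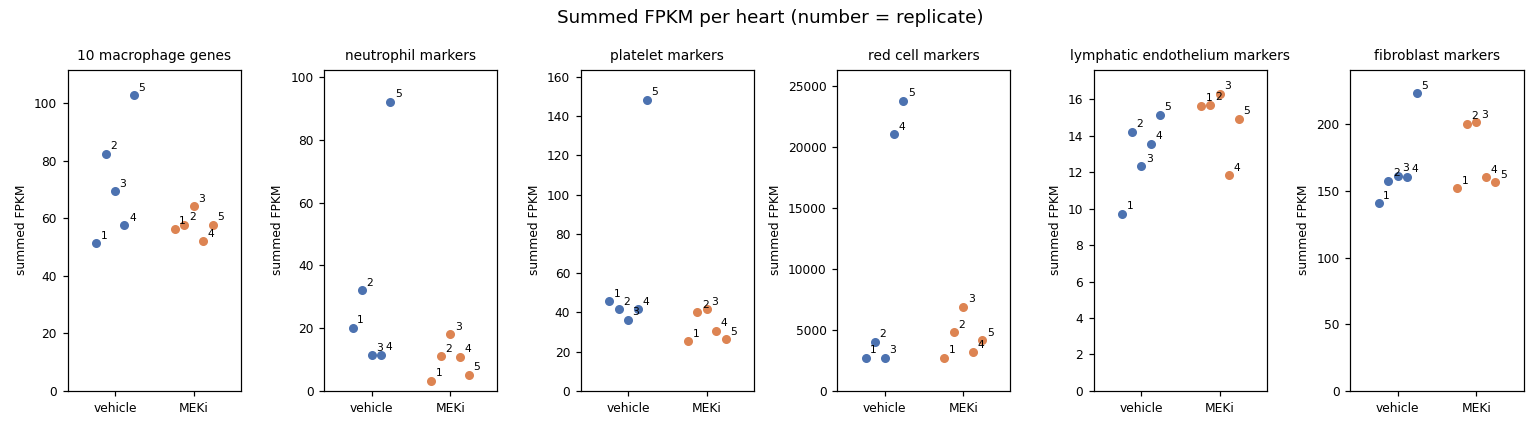
Summed FPKM per heart (vertical axes, each from 0) of the 10 macrophage genes and of the marker lists of neutrophils, platelets, red cells, lymphatic endothelium and fibroblasts; points are hearts labelled with the replicate number. Vehicle heart 5 has the highest sum for all but the lymphatic list, and vehicle heart 4 joins it only for red cells.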

How the data were processed

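Per the labels, 10 hearts were each sequenced as a poly(A) library, 5 for vehicle and 5 for MEKi, and each is called a biological replicate. The authors deposited FPKM for all genes, and their processing notes name fastp, STAR 2.5, HTSeq 0.6.1 and mm10, with no strand setting. Fragments were recovered from the product of FPKM and length, since 100% of these products in each heart were whole numbers of 1 unit (tolerance 0.01). Values were tested as log2(FPKM + 0.1) with limma 3.58.1 (R 4.3.3, empirical Bayes with trend) where the mean over the hearts reached 0.5 FPKM, with Benjamini-Hochberg adjustment over 12602 genes. Named genes were the 10, the 4 most abundant of each list, those whose groups did not overlap, those defining a cell type, and those most alike by Pearson's r. Coordinates come from the deposited table and from RefSeq. The 10 genes, the lists and the rules were chosen with earlier results of these data known. Alternatives changed the pseudocount, the filter, the scale, the weights, the block and the hearts included. The numbers of the replicates were not used as pairs, since deviations of same-numbered hearts had correlations from −0.15 to −0.02.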

Additional observations from a re-analysis of the deposited data

How the results depend on the processing

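Under 24 alternatives, none of the 10 macrophage genes passed the adjusted threshold, and their median log2 fold change stayed between −0.41 (without vehicle heart 1) and −0.18 (without vehicle heart 5). The sign turned for Adgre1 (0.0325 without the 2 hearts with high haemoglobin transcripts, 0.0839 without the 3 hearts with high atrial transcripts, both added after seeing the data, 0.0058 on a TPM scale, and −0.176 to 0.0413 when single hearts were left out) and for Timd4 (−0.15 with array weights, and −0.12 to 0.25 when single hearts were left out). The TPM scale moved the median of all genes to 0.09. Over all genes, 10 passed in the main analysis, 5 without the haemoglobin-rich hearts, 5 without the atrial-rich hearts, 18 with array weights, 2 at a mean of at least 5 FPKM (which kept 6 of the 10 macrophage genes), and 5 (without vehicle heart 2) to 13 (without vehicle heart 1) when single hearts were left out. Without the X, Y and mitochondrial genes, 0 passed with limma and 924 had an unadjusted p under 0.05. With the replicate number as a block, 4 genes passed, and none of the 10 macrophage genes did, but the numbers were not shown to pair the hearts. The cause of these shifts was not tested. Depth limits Timd4 (22 to 62 fragments) and Folr2 (27 to 68) most.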
